A study of Mus musculus with 16 samples.

Results

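The Hedgehog pathway was followed through 9 genes: the ligand Shh, the receptor Ptch1, the co-receptors Boc and Cdon, the transducer Smo, the transcription factors Gli1, Gli2 and Gli3, and the ligand-binding antagonist Hhip. They were taken by gene symbol from the deposited expression table, where each of the 9 is represented by 1 RefSeq transcript, out of 24158 genes. RNA was taken from embryoid bodies (EBs), aggregates in which R1 mouse embryonic stem (ES) cells differentiate. Day 0 EBs had been grown for 4 days in medium without Lif, and day 4 EBs received 2 μM retinoic acid (RA) for 4 further days. The whole procedure was done 2 times, which gave 4 RNA samples, and every RNA sample was split over 4 vials. IVT spike-in transcripts went into 3 of the vials (mixes 1, 2 and 3) and none into the fourth (mix 4), so that 16 libraries were sequenced. The ERCC mix changed together with the IVT mix, and no gene described here is a spike-in locus. All EBs came from 1 cell line with no further genetic change, and no EBs were kept for 4 days without RA, so RA and the longer culture cannot be told apart.

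Hedgehog ligands bind Ptch1, which in the absence of ligand holds back Smo. When Smo is released it moves into the primary cilium and turns the Gli proteins from repressors into activators, and the genes that respond include Gli1, Ptch1 and Hhip themselves. In the embryo, Shh from the notochord, floor plate and gut endoderm patterns the neural tube and the mesoderm around the gut, and RA acts on many of the same tissues.

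The 3 Gli genes are related, and the levels given here rest on reads that had to be assigned to 1 of them. To show how far their sequences differ, the coding strand of the fourth of the 5 zinc fingers, part of the DNA-binding domain, is given 5′ to 3′, with capitals at the 24 of 72 positions that are not the same in all 3 genes. The stretches lie within 1 coding exon each, in GRCm38 (GENCODE): Gli1 at chr10:127334208-127334279 on the minus strand, Gli2 at chr1:118844360-118844431 on the minus strand and Gli3 at chr13:15715034-15715105 on the plus strand.
Gli1: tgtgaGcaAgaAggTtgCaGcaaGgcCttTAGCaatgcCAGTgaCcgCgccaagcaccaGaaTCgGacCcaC
Gli2: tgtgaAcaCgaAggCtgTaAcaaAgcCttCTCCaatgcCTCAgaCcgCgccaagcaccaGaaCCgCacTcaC
Gli3: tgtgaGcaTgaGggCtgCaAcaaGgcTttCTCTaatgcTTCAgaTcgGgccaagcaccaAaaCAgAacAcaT
Gli2 and Gli3 encode the same 24 residues here, although 15 of the 72 bases differ between them. Gli1 differs from Gli2 at 15 bases and from Gli3 at 21 bases. Over the whole transcripts, the longest run of identical bases was 25 for Gli2 and Gli3, 23 for Gli1 and Gli2 and 14 for Gli1 and Gli3. Among all pairs of the 9 genes it was longest for Boc and Cdon, at 31 bases.

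Expression is given as FPKM, the fragments mapped to a transcript per unit of its length and per mapped fragment of the library, as the authors estimated it. The table gives no number of fragments behind a value, and none was derived here, so no counting error is given for the low values. Over the libraries the sum of all FPKM ranged from 411090 to 622888, and 20555 to 22156 transcripts were above 0. One feature of the libraries touches most results. In the second replicate of day 0, the vials of mixes 3 and 4 stood apart from those of mixes 1 and 2, in a way that followed GC content: the median ratio of the former to the latter was 1.68 for the transcripts of the lowest quintile of GC content (median 41.5% GC) and 0.247 for those of the highest (57.5%). Values for the 9 genes and counts for the lists below are therefore also given without these vials where that changes a call or a count. Of the cell type markers, 7 of 8 pluripotency genes were called lower at day 4 by limma, as described below, beside 14.5% of all genes. Their summed level went from 140.0–199 FPKM to 7.71–12.2 FPKM. Pou5f1, for instance, was at 62.3 ± 35.4 FPKM (SD, n = 2 RNA samples) at day 0 and at 0.864 ± 0.242 FPKM at day 4.

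All 9 genes were above 0 in all 16 vials. Smo stood highest on both days, at 29.8 ± 13.6 FPKM (SD, n = 2) at day 0 and 28.6 ± 4.91 FPKM at day 4, and no other of the genes reached 10 FPKM in any vial. On a scale per length of transcript, Smo was followed at day 0 by Ptch1 (6.66 ± 2.55 FPKM) and Gli3 (6.48 ± 0.0456 FPKM), which overlapped, then by Cdon (4.78 ± 0.288 FPKM) and Boc (2.68 ± 0.953 FPKM). Gli1, Gli2, Shh and Hhip all averaged under 1 FPKM at day 0, and each overlapped with its neighbour in this order. At day 4 the order was Smo, Gli3, Ptch1, then Cdon and Boc, which overlapped, then Gli1, Shh and Hhip, each overlapping with the next. Gli2 came last at day 4, below Hhip in both RNA samples. The number of genes averaging 1 FPKM or more was 5 of 9 at day 0 and 7 of 9 at day 4.

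**Figure D1:**
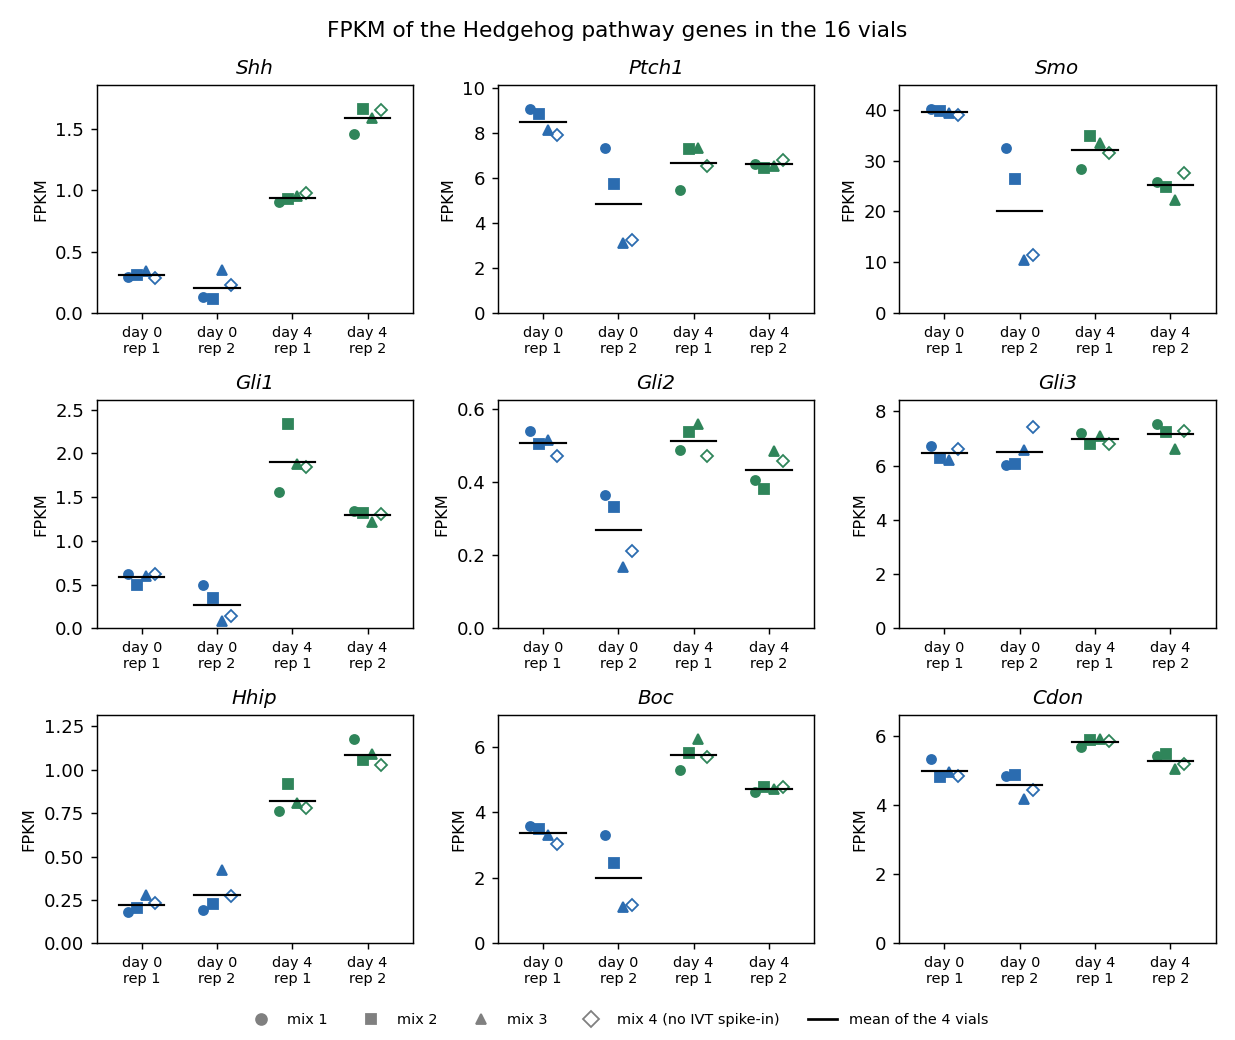
FPKM (linear axes from 0) of the 9 Hedgehog pathway genes in the 16 vials, with a panel per gene, the 4 RNA samples along the horizontal axis, a marker shape per spike-in mix and a line at the mean of the 4 vials. The day 4 vials lie above all day 0 vials for Shh, Gli1, Hhip and Boc, and the mix 3 and mix 4 vials of day 0 replicate 2 lie low for Ptch1, Smo, Gli1, Gli2 and Boc.

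Between the days, the ligand Shh and the antagonist Hhip rose, and none of the 9 genes was called lower. The 4 vials of an RNA sample were averaged, and the 2 RNA samples of day 4 were set against the 2 of day 0 as log2(FPKM + 0.1), with limma across 20490 genes and an adjusted p (Benjamini-Hochberg) of at most 0.05. Of all genes tested 16% were called higher at day 4, 14.5% lower and 30.5% either way, so that 2 of 9 called higher (22.2%) is near the background. At an unadjusted p under 0.05 in the same limma fit, 4 of the 9 were higher and 0 lower, beside 22.4% and 24.4% of all genes. The vials of the 2 days did not overlap for 4 of the 9 genes (Shh, Gli1, Hhip and Boc), each higher at day 4, as was the case for 19.8% of all genes. In EBs measured in bulk, more or fewer cells of a type and more or less RNA per cell cannot be told apart.

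Shh (NM_009170; chromosome 5, 28456815–28467256, minus strand, 3 exons) encodes the secreted ligand. In the 4 vials of the first day 0 replicate it was between 0.284 and 0.344 FPKM, and in those of the second between 0.118 and 0.354 FPKM. At day 4 it was between 0.902 and 0.975 FPKM in the first replicate and between 1.46 and 1.66 FPKM in the second. All 8 day 4 vials were thus above all 8 day 0 vials, and the 2 day 4 replicates were themselves apart. The mean went from 0.259 ± 0.0702 to 1.26 ± 0.458 FPKM (SD, n = 2), a log2 fold change of 1.90 (SE 0.36, limma adjusted p = 0.0310), which is 3.73-fold on the log2(FPKM + 0.1) scale. With any 1 of the 4 RNA samples left out, the adjusted p of Shh from limma lay between 0.0893 and 0.219, while the log2 fold change stayed between 1.55 and 2.25. With the replicate as a block it was 0.00172.

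Shh did not share the GC trend of the second day 0 replicate. Its transcript has 52.3% GC, and its level in the mix 3 and mix 4 vials was 2.34 times that in the mix 1 and mix 2 vials, where all transcripts of similar GC content (median 53.2%) had a median ratio of 0.495. Without the mix 3 and mix 4 vials the log2 fold change of Shh was 2.13 (adjusted p = 0.0187).

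Other genes for the making, transport and reception of the ligand were taken as a list of 16. Of these, 4 were higher and 3 lower at day 4, beside 16% and 14.5% of all genes. The median log2 fold change was -0.11 beside -0.03 over all genes. The glypican Gpc3, a cell surface proteoglycan that binds Hedgehog, had the highest level of the list and went from 216 ± 1.04 to 551 ± 17.8 FPKM (adjusted p = 0.0115), and Gpc6 went from 2.46 ± 0.257 to 6.67 ± 0.507 FPKM (adjusted p = 0.0189). Of the 3 Scube genes, whose secreted products help release the ligand from the cell, 2 were called, in opposite directions. Scube2 fell from 2.63 ± 0.888 to 0.050 ± 0.0265 FPKM (adjusted p = 0.00709), while Scube1 rose from 0.0744 ± 0.0136 to 0.404 ± 0.107 FPKM (adjusted p = 0.0182). Scube3 was at 3.31 ± 2.48 and 1.33 ± 0.432 FPKM (adjusted p = 0.282), and was called lower with the replicate as a block (adjusted p = 0.0275). After the correction for GC content described below, its log2 fold change was -0.01 with no call (adjusted p = 0.983). Of the 16 genes, 4 were higher and 8 lower without the mix 3 and mix 4 vials of the second day 0 replicate. Of all genes, 27.1% were then higher and 33.6% lower.

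At the cell surface, the mean levels of the receptor Ptch1 were close on the 2 days, while the co-receptor Boc was higher at day 4 in every vial. Ptch1 (NM_008957; chromosome 13, 63508328–63573598, minus strand, 23 exons) binds the ligand and restrains Smo. It was between 7.89 and 9.03 FPKM in the first day 0 replicate, between 3.12 and 7.31 FPKM in the second, and between 5.47 and 7.31 FPKM over the 8 day 4 vials. The day 4 vials thus fell inside the range of day 0. The means were 6.66 ± 2.55 and 6.62 ± 0.0318 FPKM (SD, n = 2), and the log2 fold change was 0.04 (95% confidence interval -0.87 to 0.96, limma adjusted p = 0.925), an interval that holds changes of nearly 1 unit either way. Without the mix 3 and mix 4 vials of the second day 0 replicate, the log2 fold change was -0.17 with an interval of -0.62 to 0.29.

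Boc (NM_172506; chromosome 16, 44485049–44558897, minus strand, 19 exons) is a membrane protein that binds Shh together with Ptch1. It was between 3.03 and 3.57 FPKM in the first day 0 replicate and between 1.10 and 3.30 FPKM in the second. At day 4 it was between 5.29 and 6.22 FPKM in the first replicate and between 4.62 and 4.78 FPKM in the second. The days did not overlap in any vial, and the means were 2.68 ± 0.953 and 5.23 ± 0.726 FPKM (SD, n = 2). The log2 fold change was 0.98 (SE 0.33) with a limma adjusted p of 0.0980, so that Boc did not pass the test as set. It passed with the replicate as a block (adjusted p = 0.0155) and without the mix 3 and mix 4 vials of the second day 0 replicate (0.73, adjusted p = 0.0244).

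Cdon (NM_021339; chromosome 9, 35421128–35507652, plus strand, 19 exons) is a relative of Boc with the same role. The 8 day 0 vials had a median of 4.83 FPKM (4.18 to 5.33), and the 8 day 4 vials a median of 5.57 FPKM (5.05 to 5.89). The means were 4.78 ± 0.288 and 5.55 ± 0.386 FPKM (SD, n = 2), and the log2 fold change was 0.21 (95% confidence interval -0.31 to 0.73, limma adjusted p = 0.425). The vials of the days overlapped, while the RNA samples did not, which was also the case for 71.1% of all genes. Among the further reception genes, Gas1, a GPI-anchored co-receptor, had the largest fold change of the list. It went from 2.97 and 4.42 FPKM in the day 0 replicates to 104 and 110 FPKM at day 4 (log2 fold change 4.84, SE 0.24, adjusted p = 0.00456). Its transcript has 72.3% GC, the highest of the genes named here, and the log2 fold change was 5.81 after the correction for GC content described below. Lrp2, an endocytic receptor that binds Shh, did not pass the test, with means of 3.48 ± 0.740 FPKM at day 0 and 2.17 ± 0.0249 FPKM at day 4 (adjusted p = 0.129), but was called lower after GC correction (log2 fold change -0.64, adjusted p = 0.0260).

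Smo (NM_176996; chromosome 6, 29735503–29761365, plus strand, 12 exons), the membrane protein that carries the signal into the cell, was the most highly expressed of the 9 and differed widely between the vials of 1 RNA sample. It was between 38.9 and 40.04 FPKM in the first day 0 replicate. In the second it was 32.5 and 26.3 FPKM in the vials of mixes 1 and 2 and 10.5 and 11.5 FPKM in those of mixes 3 and 4. The day 4 vials had a median of 27.98 FPKM and a range of 22.3 to 34.9 FPKM, below all vials of the first day 0 replicate and overlapping with the second. The log2 fold change was 0.01 (95% confidence interval -1.09 to 1.10, limma adjusted p = 0.991), and -0.26 (-0.87 to 0.34) without the mix 3 and mix 4 vials. Between these intervals and the value after correction for GC content, 1.21 (0.61 to 1.81, adjusted p = 0.0142), no direction can be given for Smo.

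Among the Gli factors, Gli1 was higher at day 4 in every vial, while the intervals of Gli2 and Gli3 included 0. Gli1 (NM_010296; chromosome 10, 127329882–127341974, minus strand, 13 exons) encodes an activator whose own transcription depends on the pathway. It was between 0.496 and 0.621 FPKM in the first day 0 replicate and between 0.0880 and 0.497 FPKM in the second. At day 4 it was between 1.56 and 2.33 FPKM in the first replicate and between 1.21 and 1.34 FPKM in the second. The lowest day 4 vial was thus above the highest day 0 vial, by more than the whole range of the day 0 vials. The means were 0.427 ± 0.224 and 1.60 ± 0.432 FPKM (SD, n = 2), a log2 fold change of 1.73 (SE 0.43).

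With an adjusted p of 0.0535 from limma, Gli1 missed the threshold as set, although the fold change was of the size of that of Shh. It passed with the replicate as a block (adjusted p = 0.00165), and without the mix 3 and mix 4 vials of the second day 0 replicate, where the log2 fold change was 1.49 (adjusted p = 0.0155). In those vials Gli1, the transcript with the highest GC content of the 9 (59.0%), was at 0.277 times its level in the vials of mixes 1 and 2.

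Gli2 (NM_001081125; chromosome 1, 118834132–119053619, minus strand, 14 exons) acts mainly as an activator and Gli3 (NM_008130; chromosome 13, 15463235–15730026, plus strand, 15 exons) mainly as a repressor. Gli2 was between 0.167 and 0.540 FPKM over the 8 day 0 vials (median 0.419) and between 0.381 and 0.559 FPKM over the 8 day 4 vials (median 0.480). Its means were 0.389 ± 0.169 and 0.474 ± 0.0575 FPKM (SD, n = 2), and the log2 fold change was 0.27 (95% confidence interval -0.66 to 1.203, limma adjusted p = 0.549). Gli3 was between 6.01 and 7.41 FPKM over the day 0 vials (median 6.42) and between 6.59 and 7.52 FPKM over the day 4 vials (median 7.14). It had the narrowest interval of the 9: the log2 fold change was 0.12 (-0.33 to 0.58, adjusted p = 0.583), from means of 6.48 ± 0.0456 and 7.06 ± 0.132 FPKM. At both days the level of Gli3 was far above that of Gli1 and Gli2, with Gli2 at 0.0255 to 0.0835 times Gli3 over the day 0 vials and at 0.0526 to 0.0791 times Gli3 over the day 4 vials. Gli1, on the other hand, was at 0.0134 to 0.0974 times Gli3 at day 0 and at 0.178 to 0.343 times Gli3 at day 4, with no overlap between the days. At day 0 this ratio was 0.0907 in the first replicate and 0.0412 in the second, whose mix 3 and mix 4 vials stand apart. The ratios are not corrected for GC content, which is 59.0% for Gli1, 57.5% for Gli2 and 48.4% for Gli3.

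Hhip (NM_020259; chromosome 8, 79965851–80058006, minus strand, 13 exons) encodes a surface protein that binds and sequesters the ligand and that is induced by the pathway. It was between 0.180 and 0.280 FPKM in the first day 0 replicate and between 0.193 and 0.423 FPKM in the second. At day 4 it was between 0.765 and 0.920 FPKM in the first replicate and between 1.03 and 1.18 FPKM in the second. The days did not overlap, and the second replicate was the higher at day 4, as for Shh, whereas Gli1 and Boc were higher in the first. The mean went from 0.251 ± 0.0384 to 0.953 ± 0.189 FPKM (SD, n = 2), a log2 fold change of 1.58 (SE 0.26, limma adjusted p = 0.0235), which is 2.98-fold on the log2(FPKM + 0.1) scale. Hhip has the lowest GC content of the 9 (41.2%). With 1 RNA sample left out, its adjusted p lay between 0.0465 and 0.204, and at most 0.05 only without the second day 0 replicate.

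**Figure D2:**
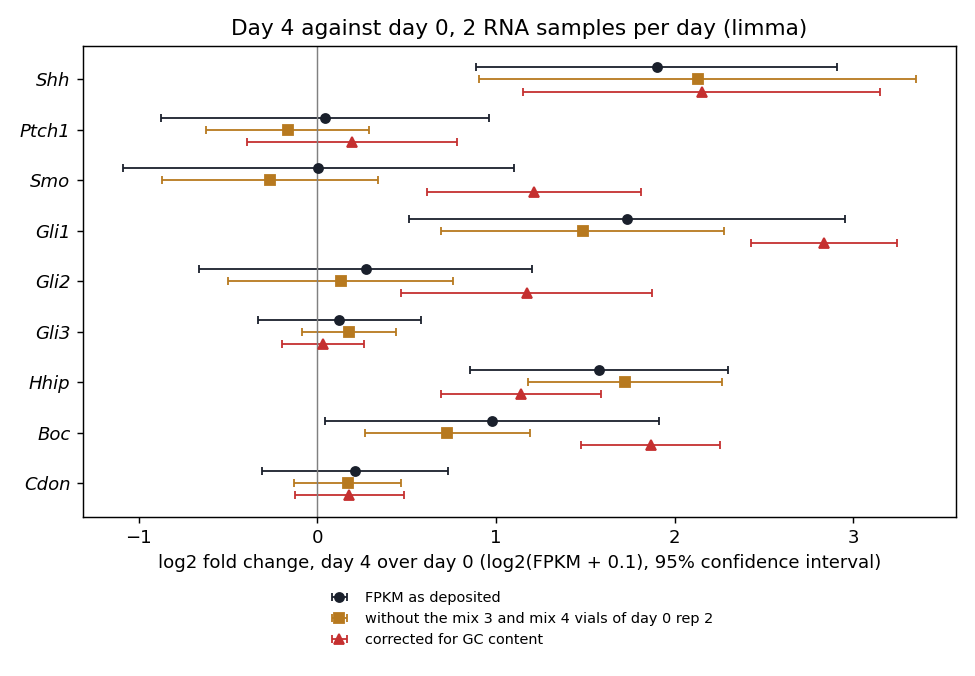
Log2 fold change of day 4 over day 0 on log2(FPKM + 0.1) for each gene, as estimated by limma from 2 RNA samples per day, with 95% confidence intervals. Black circles show the FPKM as deposited, ochre squares the same without the mix 3 and mix 4 vials of day 0 replicate 2, and red triangles the values corrected for GC content. Shh, Gli1, Hhip and Boc lie above 0 in all 3, while Smo moves from 0.01 to 1.21 with the correction.

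The dependence on GC content was followed for the 9 genes. In the second day 0 replicate, 6 of the 9 were lower in the mix 3 and mix 4 vials than in those of mixes 1 and 2, and 3 (Shh, Gli3 and Hhip) were higher. The ratio ran from 0.277 for Gli1 to 2.34 for Shh. Across the 9 genes its log2 value had a Pearson r of -0.72 and a Spearman rho of -0.75 with GC content, a description over genes that were measured in the same 4 vials. The coefficient of variation of the 9 genes over the 4 vials of an RNA had a median of 41.7% in this RNA sample and of 5.50% to 7.78% in the other 3.

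The change between the days also moved with GC content over the whole table. The median log2 fold change of genes with a mean of at least 1 FPKM was 0.51 in the lowest quintile of GC content (median 41.9%) and -1.36 in the highest (57.9%), near the GC content of Smo and Gli1. Dividing each vial by its deviation from the mean profile over GC content brought these medians to 0.02 and -0.08. After this correction 6 of the 9 genes were called higher (66.7%), Smo and Gli2 in addition to Shh, Gli1, Hhip and Boc, and 0 lower, beside 27.6% and 24.3% of all genes. At an unadjusted p under 0.05 by limma these counts were the same, beside 30.6% and 27.7%. With the correction and the replicate as a block 6 were also called higher, beside 29.7%. The log2 fold changes became 2.84 for Gli1 (adjusted p = 0.00101), 1.86 for Boc (adjusted p = 0.00189) and 1.17 for Gli2 (adjusted p = 0.0237), while that of Hhip fell to 1.14 (adjusted p = 0.00796). Shh stayed at 2.15 (adjusted p = 0.0122), and Ptch1, Gli3 and Cdon remained at 0.19, 0.03 and 0.18 and did not pass.

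The corrected values are not free of the same vials. After correction the ratio of the mix 3 and mix 4 vials to the others in the second day 0 replicate was 1.68 for Smo, 2.40 for Gli2 and 4.50 for Shh, further from 1 than before for Shh and Gli2. In the first day 0 replicate the correction took Smo from 39.5 to 14.8 FPKM. The correction also removes any difference between the days that goes with GC content for biological reasons, and its part in these results was not tested.

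**Figure D3:**
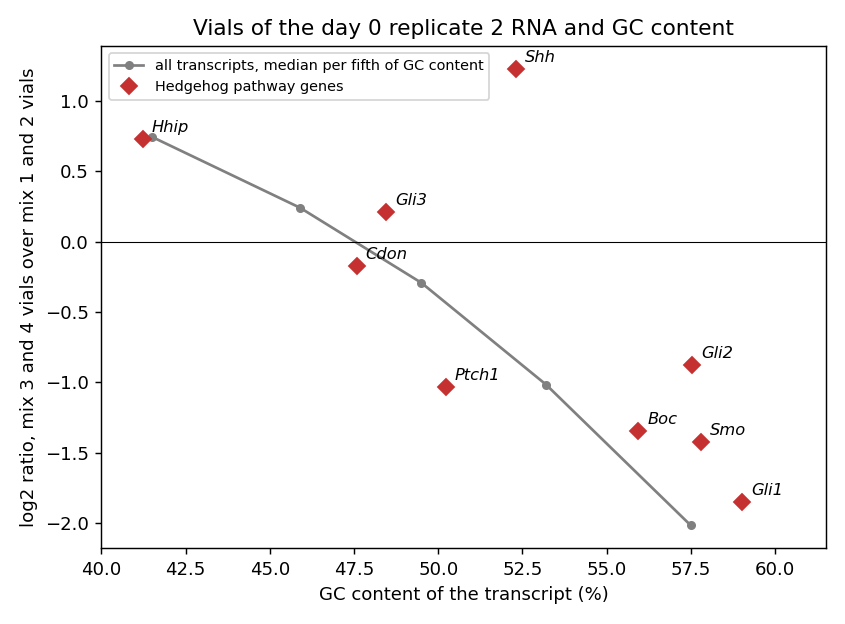
GC content of the transcript (%) against the log2 ratio of the mean FPKM in the mix 3 and mix 4 vials to that in the mix 1 and mix 2 vials of day 0 replicate 2, for the 9 genes (red diamonds) and as the median of all transcripts in each quintile of GC content (grey line). Gli1, Smo, Boc, Ptch1 and Gli2 lie well below 0, Ptch1 (-1.03) also below the line at its GC content, and Shh, at 2.34 times, lies above the line.

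With the replicate number as a block, 4 of the 9 genes were called higher (Shh, Gli1, Hhip and Boc) and 0 lower, beside 22.5% and 29.1% of all genes. At an unadjusted p under 0.05 these counts were also 4 and 0, beside 24.8% and 31.9%. Without the mix 3 and mix 4 vials the same 4 genes were called higher, beside 27.1% of all genes higher and 33.6% lower. Scaling all vials to the same sum of FPKM also called these 4 higher, beside 18.3%, as did a fit on the 16 vials with the RNA sample as a random block, beside 23.6%. The fit on the vials used the same correlation of vials within an RNA sample (0.373) for all genes. Splits of an RNA then count partly as replicates, so its p-values can be too small.

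Between Smo and the Gli proteins, a list of 24 regulators had 4 genes higher and 3 lower (median log2 fold change 0.06), beside 16% and 14.5% of all genes. Csnk1a1, a casein kinase that takes part in Gli and Smo phosphorylation, had the highest level and went from 159 ± 29.6 to 298 ± 13.5 FPKM (adjusted p = 0.0401). Efcab7, which holds the Evc complex at the base of the cilium, rose from 6.87 ± 1.94 to 16.5 ± 1.76 FPKM (adjusted p = 0.0370). The genes that fell were Zic2, a zinc finger factor that can act with Gli proteins (3.23 ± 0.738 to 0.0719 ± 0.0101 FPKM, adjusted p = 0.00524), Tulp3, which brings receptors into the cilium (6.76 ± 2.15 to 2.30 ± 0.263 FPKM, adjusted p = 0.0371), and Grk2, a kinase of activated Smo (24.3 ± 12.1 to 6.40 ± 1.54 FPKM, adjusted p = 0.0495). After GC correction the log2 fold change of Grk2 was -0.54 in place of -1.83, and Zic2 no longer passed (adjusted p = 0.0653). The inhibitor Sufu, at 4.53 ± 1.85 and 2.07 ± 0.367 FPKM, and the ciliary kinesin Kif7, at 5.30 ± 3.03 and 2.39 ± 0.263 FPKM, did not pass (adjusted p = 0.112 and 0.186), but both were called lower with the replicate as a block (adjusted p = 0.0143 and 0.0258). Their transcripts have 56.9% and 59.4% GC, and after the correction the log2 fold changes were -0.08 and 0.38 with no call. Of the 24 genes, 8 were higher and 7 lower when the mix 3 and mix 4 vials of the second day 0 replicate were left out. These counts stand beside 27.1% and 33.6% of all genes.

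For 20 genes of the primary cilium, in which the pathway runs, the median log2 fold change was 0.36. By limma 6 were higher and 0 lower, beside 16% and 14.5% of all genes. They included the intraflagellar transport genes Ift80 (10.0 ± 1.77 to 26.3 ± 1.27 FPKM, adjusted p = 0.0168) and Ift88 (7.92 ± 1.62 to 16.02 ± 0.797 FPKM, adjusted p = 0.0367), the BBSome gene Bbs2 (4.30 ± 0.00654 to 10.96 ± 0.528 FPKM, adjusted p = 0.0139) and the transition zone gene Cc2d2a (1.96 ± 0.0324 to 6.01 ± 0.0642 FPKM, adjusted p = 0.0135). These 4 stayed higher after GC correction, under which 13 of the 20 were higher and 0 lower, beside 27.6% and 24.3% of all genes. At an unadjusted p under 0.05 by limma, 8 were higher and 0 lower as deposited, beside 22.4% and 24.4% of all genes, and 14 and 0 after the correction, beside 30.6% and 27.7%. Without the mix 3 and mix 4 vials of the second day 0 replicate, 10 were higher and 2 lower, beside 27.1% and 33.6% of all genes.

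Genes known to respond to Hedgehog signalling were described in 2 lists. The neural tube list of 14 holds the genes that Shh switches on or off along the dorsal to ventral axis. Of these, 3 were higher and 4 lower, beside 16% and 14.5% of all genes, with a median log2 fold change of -0.51. The floor plate genes Ntn1, a guidance cue, and Foxa2 went from 0.268 ± 0.155 to 1.76 ± 0.416 FPKM (adjusted p = 0.0271) and from 0.307 ± 0.0596 to 0.825 ± 0.140 FPKM (adjusted p = 0.0409). Foxa2 no longer passed after GC correction (adjusted p = 0.0782), and both genes are also expressed outside the floor plate. Foxj1, a regulator of motile cilia, fell from 0.467 ± 0.329 to 0.0144 ± 0.00689 FPKM (adjusted p = 0.0393), and Pax6, which Shh represses ventrally, rose from 0.130 ± 0.00672 to 0.372 ± 0.0744 FPKM (adjusted p = 0.0301). The ventral progenitor genes Olig2 and Nkx2-2 were near 0 in all samples, at 0.0131 ± 0.00513 FPKM for Olig2 and listed at 0 for Nkx2-2 at day 4. Nkx6-1 was at 0.225 ± 0.181 and 0.0224 ± 0.00159 FPKM (adjusted p = 0.0985), while Nkx6-2 and Nkx2-9 were at 0.129 ± 0.119 and 0.127 ± 0.151 FPKM at day 0 and listed at 0 at day 4 (adjusted p = 0.113 and 0.220). These 3 were called lower with the replicate as a block (adjusted p = 0.00242, 0.00259 and 0.0119), and not after GC correction. Without the mix 3 and mix 4 vials of the second day 0 replicate, 3 genes of this list were higher and 6 lower. Of all genes, 27.1% were then higher and 33.6% lower.

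In the list of 22 genes reported to respond in other tissues, 9 were higher and 4 lower, beside 16% and 14.5% of all genes. The median log2 fold change of this list was 0.63. The largest changes were those of the nuclear receptors Nr2f2 (0.113 ± 0.0136 to 67.3 ± 7.28 FPKM, adjusted p = 0.00456) and Nr2f1 (0.0708 ± 0.00813 to 18.3 ± 2.88 FPKM, adjusted p = 0.00456) and of the mesenchymal factor Foxc2 (0.121 ± 0.0216 to 15.1 ± 1.84 FPKM, adjusted p = 0.00456). All 3 are known to respond to other signals as well, RA among them for Nr2f1 and Nr2f2. The zinc finger gene Sall1 fell from 6.05 ± 1.49 to 0.134 ± 0.0191 FPKM (adjusted p = 0.00497). Igfbp3, an IGF-binding protein with the highest level of this list, rose from 48.0 ± 5.95 to 85.0 ± 2.48 FPKM (adjusted p = 0.0319). In this list 14 genes were higher and 4 lower without the mix 3 and mix 4 vials, beside 27.1% and 33.6% of all genes. Over these lists together, 26 of 96 genes were higher (27.1%) and 14 lower (14.6%), beside 16% and 14.5% of all genes, and the median log2 fold change was 0.24 beside -0.03. With the replicate as a block these counts were 31 and 23 of 96, beside 22.5% higher and 29.1% lower over all genes. After GC correction they were 48 and 12, beside 27.6% and 24.3%, and without the mix 3 and mix 4 vials 39 and 27, beside 27.1% and 33.6%.

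**Figure D4:**
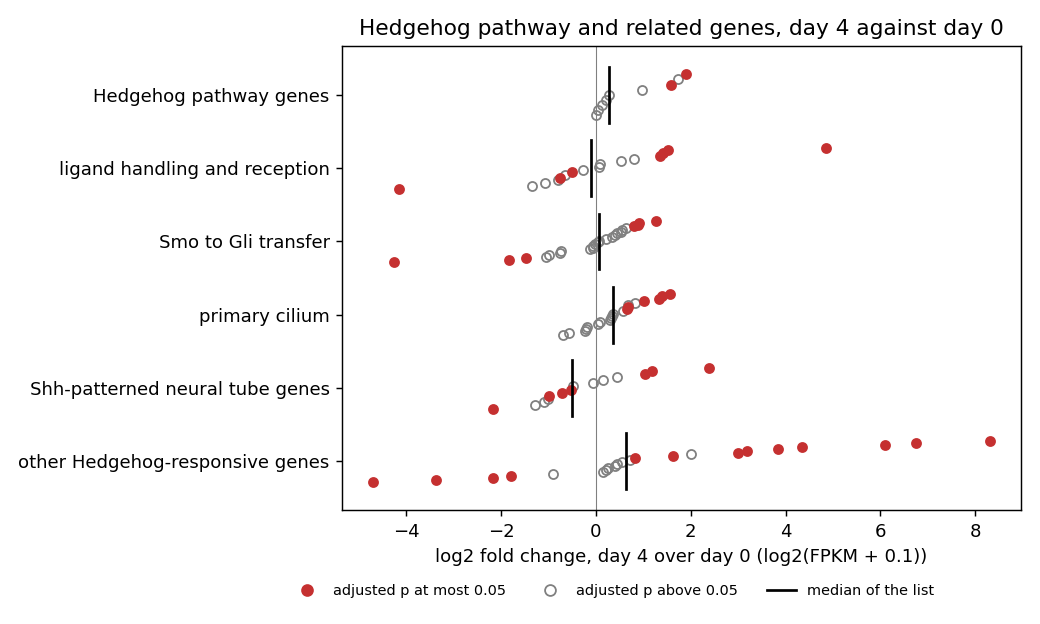
Log2 fold change of day 4 over day 0 (horizontal axis, log2(FPKM + 0.1)) of each gene of the 9 Hedgehog pathway genes and of the 5 related lists, 1 point per gene, filled in red where the limma adjusted p was at most 0.05, with the median of each list as a black bar. The related lists spread from the fall of Sall1 (-4.70) to the rise of Nr2f2 (8.30), while the 9 genes lie between 0.01 and 1.90.

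Markers of cell types that can send or receive the signal moved between the days. Their counts stand beside 16% of all genes called higher and 14.5% lower. Without the mix 3 and mix 4 vials of the second day 0 replicate these shares were 27.1% and 33.6%. Of 9 markers of the midline (notochord, node and floor plate), 2 were higher and 4 lower, and their sum went from 66.5–77.8 to 4.29–4.51 FPKM. At day 0 that sum was mostly T (Brachyury), a marker of notochord and early mesoderm. T fell from 67.0 ± 8.07 to 0.0190 ± 0.00672 FPKM (adjusted p = 0.00456). The 2 midline markers that were higher were Ntn1 and Foxa2, whose values are given above. Of 9 endoderm markers, 5 were higher and 1 lower, and 7 and 1 without those vials. The sum was 46.4–74.2 FPKM at day 0, mostly Cdx2, and 78.5–78.7 FPKM at day 4, mostly Gata6. Gata6 rose from 6.36 ± 0.160 to 54.4 ± 1.79 FPKM (adjusted p = 0.00456), while Cdx2 fell from 44.5 ± 18.6 to 0.188 ± 0.0339 FPKM (adjusted p = 0.00456).

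Mesoderm and neural markers moved both ways, beside the same shares of all genes (16% higher and 14.5% lower). Of the 9 mesoderm markers 3 were higher and 5 lower, with a sum of 108–128 FPKM at day 0 and 130–132 FPKM at day 4. Without the mix 3 and mix 4 vials of the second day 0 replicate, 4 were higher and 5 lower. Pdgfra rose from 6.69 ± 0.535 to 37.2 ± 1.39 FPKM (adjusted p = 0.00486) and Hand1 fell from 27.1 ± 12.5 to 0.0406 ± 0.0239 FPKM (adjusted p = 0.00467). Of the 9 neural markers 3 were higher and 4 lower, and 4 and 4 without those vials. Their sum was 27.7–44.2 FPKM at day 0 and 39.3–41.4 FPKM at day 4. Hoxb4 rose from 1.76 ± 0.237 to 19.7 ± 0.278 FPKM (adjusted p = 0.00465), Tubb3 fell from 12.03 ± 7.88 to 0.761 ± 0.160 FPKM (adjusted p = 0.0212), and Nes was at 20.8 ± 2.97 and 19.3 ± 1.46 FPKM (adjusted p = 0.683). The part of these cell types in the levels of Shh, Gli1, Hhip and Boc was not tested.

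For Shh, Ptch1 and Gli1, the genes with the most similar pattern over the 16 vials were looked up among 11583 genes with a mean of at least 1 FPKM, by the Pearson r of log2(FPKM + 0.1). They were Prss23 (r = 0.985), Wdfy1 (r = 0.980) and 1810037I17Rik (r = 0.975) for Shh. For Ptch1 they were Acta2 (r = 0.987), Hsdl1 (r = 0.986) and Ndufa12 (r = 0.982), and for Gli1 they were Arnt2 (r = 0.994), Tmem98 (r = 0.994) and Tmem176a (r = 0.993). The 16 vials come from 4 RNA samples, and the vials that stand apart enter each r. The genes like Gli1 have 52.4% to 57.0% GC.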

How the data were processed

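Per the labels, total RNA of R1 mouse EBs was sampled at day 0 and day 4 of RA and sequenced as 16 libraries. The paper describes the vials, the biological replicates (their numbers come from its sample list) and stranded paired-end reads. The authors mapped reads with Bowtie2 2.1.0 to RefSeq (mm10) and spike-in transcripts, estimated abundance with RSEM 1.2.18 and deposited FPKM scaled by TMM. The submitters' processing notes also name TopHat2 2.0.10. The deposited table holds no counts, and fragments per value were not derived here. The values move with GC content.

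FPKM were summed per gene (99.2% of 33702 RefSeq rows matched a symbol). The 48 spike-in rows and 1700047L14Rik were left out. Genes at 0 throughout were dropped. limma 3.58.1 (R 4.3.3, lmFit, eBayes with a trend) was run on log2(mean FPKM of the vials + 0.1), 2 against 2, and tested on simulated data. The simulated data had independent noise, with no GC trend and no vials that stand apart. They thus cannot show how often calls are false in these libraries. Python 3.11.15 with pandas 2.3.3, numpy 2.4.6 and matplotlib 3.10.9 did the rest. GC correction used 20 bins over 12569 transcripts (GC from GENCODE M21 of GRCm38, 97.4% matched).

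The paper states that the procedure was repeated, and its sample list numbers the replicates. It does not state that equal numbers at day 0 and day 4 come from 1 culture, so the replicate block assumes this pairing. The replicate differences of day 0 and day 4 had r = 0.769 over 11583 genes (0.543 after GC correction).

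The 9 genes and the lists were chosen with earlier results of these data known. Named from each pathway list were the up to 4 genes with the largest fold change among those called and not overlapping, and the gene with the highest level. The others (Lrp2, Scube3, Sufu, Kif7, Olig2, Nkx2-2, Nkx2-9, Nkx6-1 and Nkx6-2) were chosen after their values were seen. From the marker lists only some of the genes that the same rule selects are named. Those left out include Apoa1 and Meox1, which rose, and Mesp1, which fell. GC correction without the vials that stand apart was added after seeing the data.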

Additional observations from a re-analysis of the deposited data

Results flagged for a closer look

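Of 36 groups of 4 vials (9 genes in 4 RNA samples), 1 held a vial that Dixon's test at the 95% level sets apart. In the first day 0 replicate, Gli1 was at 0.496 FPKM in the mix 2 vial and between 0.603 and 0.621 FPKM in the other 3, a ratio of gap to range of 0.856. Chance alone gives about 1 such group in 20.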

How the results depend on the processing

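The number of the 9 genes called higher at day 4 was 2 in the analysis as set, beside 16% of all genes. It was 4 with the replicate block (22.5% of all genes) and with FPKM scaled to the same sum in all vials (18.3%). It was also 4 with the 16 vials as units and the RNA sample as a random block (23.6%). The same number was called without the mix 3 and mix 4 vials of day 0 replicate 2 (27.1%). It was 6 with the GC correction, alone (27.6% of all genes), with the replicate block (29.7%) or without those vials. With the correction and without those vials, 35.4% of all genes were higher at an unadjusted p under 0.05 by limma. It was 1 (Gli1) among the 6 genes left by a filter at a mean of 1 FPKM, and by limma 0 with no filter and with the mix 4 vials alone, where 3 and 2 genes had an unadjusted p under 0.05. With 1 RNA sample left out it ranged from 0 to 1. Fitting transcripts in place of gene sums called 0 of the 9 by limma (lowest adjusted p 0.0515), beside 2 with gene sums. At an unadjusted p under 0.05, 4 were higher, beside 18.6% of all transcripts. No setting called any of the 9 lower.

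The log2 fold changes near 0 changed sign. Smo was at -0.26 without the 2 vials and ranged from -0.48 to 0.49 with 1 RNA sample left out, Ptch1 was at -0.17 and ranged from -0.35 to 0.44, and Gli2 ranged from -0.0887 to 0.63. The other 6 genes kept a positive sign in every setting run. Over all settings the log2 fold change of Shh lay between 0.83 and 2.60, that of Gli1 between 0.86 and 2.89, that of Hhip between 0.64 and 1.96 and that of Boc between 0.62 and 1.95. The cause of these differences was not tested.

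For the other 96 pathway genes, 26 were higher as set, beside 40 with the vials as units, 48 with the GC correction, 39 without the 2 vials, 60 with it and without the 2 vials, 55 with it and the replicate block, 10 with the mix 4 vials alone and 0 to 28 with 1 RNA sample left out. Lower were 14 as set (14.5% of all genes), 23 with the block (29.1%) and 27 without the 2 vials (33.6%). Called lower were 9 with no filter, 7 above 1 FPKM and 2 with the mix 4 vials alone. In these settings 17.2%, 28.6% and 9.28% of all genes tested were lower at an unadjusted p under 0.05 by limma. Leaving out either day 4 replicate left 1 RNA sample at day 4, so the spread came from the 2 day 0 samples. Only 2 RNA samples per day were measured, the counting error of the low genes was not derived, and the lone sample of a day was assumed to vary like the others.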
